A study of Mus musculus with 10 samples.

Results

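Long noncoding RNA (lncRNA) gene starts away from coding genes were examined in mouse embryonic stem (ES) cells. A gene was a member of the set if it lay on chr1 to chr19, was typed lincRNA, antisense or processed_transcript in GENCODE M21 on the mm10 build, and had a 5′ end over 5 kb from every protein-coding transcript start. Of 51229 annotated genes on these chromosomes, 6519 met the rule: 4557 typed lincRNA (between genes), 1584 antisense and 378 processed_transcript. They were compared with 20807 protein-coding genes, with the 16516 coding genes whose start lay over 5 kb from the start of any other coding gene (called isolated here), and with 2356 lncRNA genes within 5 kb of a coding start.

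The cells were of the F123 line, an unperturbed ES line from a cross of Mus musculus castaneus with S129/SvJae, grown on irradiated CF1 mouse embryonic fibroblasts and passaged once without this feeder layer before harvest. H3K4me3 was measured by ChIP-seq and open chromatin by ATAC-seq, in 2 biological replicates each, and a single deposited peak list stood for both replicates of each assay. There was therefore no spread between replicates for any value, the read depth behind the lists was unknown, and the 95% intervals below (Wilson for a share, Newcombe for a difference) cover counting error only, with genes taken as independent. The lists held 32496 H3K4me3 peaks and 172958 ATAC-seq peaks on chr1 to chr19. Of 8 ES cell marker genes, 7 (all but Esrrb) had an H3K4me3 peak within 1 kb and 8 had an ATAC-seq peak. Of 8 fibroblast marker genes, 4 (Col1a1, Col1a2, Dcn and Thy1) had both, while Col3a1, Postn, Lum and Fap had neither. Over all coding starts the shares were 66.4% for H3K4me3 and 72.2% for ATAC-seq. The part of any remaining feeder cells in the lists was not tested.

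H3K4me3 is trimethylation of lysine 4 on histone H3, which in mammals sits on nucleosomes next to active transcription starts and also next to many CpG-rich starts that are silent but poised. ATAC-seq cuts DNA that is free of nucleosomes and so marks promoters as well as enhancers and insulators, whereas most H3K4me3 is found at promoters. LncRNA genes are transcribed by RNA polymerase II like coding genes, but as a class they are expressed at lower levels and in fewer cell types. Many lie near enhancers or begin inside transposable elements.

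The promoters of 4 members show the range of sequence behind the results: a CpG-rich start with a strong H3K4me3 peak, starts with a peak and at most 1 CpG, and a start with 4 CpGs and no H3K4me3 peak. Each sequence runs 5′ to 3′ on the strand of the gene, with 250 bases before the annotated 5′ end and the first 50 bases of the gene, on GRCm38/mm10, with every CpG in capitals. 1810026B05Rik, also known as Chaserr, lies at chr7:73558346-73558645 on the minus strand, upstream of Chd2, and had the highest H3K4me3 fold enrichment of all members, with 30 CpGs in the 300 bases.
1810026B05Rik: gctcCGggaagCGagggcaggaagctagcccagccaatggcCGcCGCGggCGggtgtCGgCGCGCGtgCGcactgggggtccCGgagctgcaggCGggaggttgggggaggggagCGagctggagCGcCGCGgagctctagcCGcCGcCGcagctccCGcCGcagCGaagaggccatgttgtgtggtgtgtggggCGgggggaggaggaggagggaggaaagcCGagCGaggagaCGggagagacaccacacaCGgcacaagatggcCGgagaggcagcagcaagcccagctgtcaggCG
Platr10 and Platr7 belong to the pluripotency-associated transcripts, a series of lncRNAs named for their expression in ES cells. Platr10 lies at chr3:75655682-75655981 on the minus strand with 1 CpG. Platr7, at chr10:84553289-84553588 on the minus strand, had an H3K4me3 peak and no CpG at all.
Platr10: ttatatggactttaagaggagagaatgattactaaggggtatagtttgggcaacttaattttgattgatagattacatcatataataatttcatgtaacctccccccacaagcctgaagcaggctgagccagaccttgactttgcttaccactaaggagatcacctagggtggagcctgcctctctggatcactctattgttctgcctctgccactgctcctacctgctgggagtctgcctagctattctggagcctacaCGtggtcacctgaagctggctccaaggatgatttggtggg
Platr7: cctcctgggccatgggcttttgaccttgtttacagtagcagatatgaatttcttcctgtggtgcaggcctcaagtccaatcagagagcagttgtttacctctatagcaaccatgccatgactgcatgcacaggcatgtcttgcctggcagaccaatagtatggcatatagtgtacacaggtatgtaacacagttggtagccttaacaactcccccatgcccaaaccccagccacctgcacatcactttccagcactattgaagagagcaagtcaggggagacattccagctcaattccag
Hotair, transcribed from the HoxC cluster, had an ATAC-seq peak without H3K4me3 and lies at chr15:102947681-102947980 on the minus strand with 4 CpGs.
Hotair: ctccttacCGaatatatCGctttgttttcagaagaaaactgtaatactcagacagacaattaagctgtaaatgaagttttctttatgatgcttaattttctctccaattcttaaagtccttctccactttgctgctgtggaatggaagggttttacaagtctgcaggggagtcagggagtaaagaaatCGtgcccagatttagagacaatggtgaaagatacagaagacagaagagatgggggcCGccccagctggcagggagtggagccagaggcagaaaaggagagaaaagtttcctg

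H3K4me3 was far less frequent at lncRNA starts than at coding starts. Of the 6519 lncRNA starts, 917 (14.1%, interval 13.2% to 14.9%) had an H3K4me3 peak within 1 kb, compared with 36.0% of all annotated genes and with 13806 of 20807 coding starts (66.4%, 65.7% to 67.0%). The difference between coding and lncRNA starts was 52.3 percentage points (51.2 to 53.3). Against the 16516 isolated coding starts, of which 61.9% were marked, it was 47.9 points (46.7 to 49.0). The difference was seen on every chromosome: the lncRNA share was below the coding share on 19 of 19, and ranged from 8.06% of 335 starts on chr14 to 25.7% of 284 starts on chr17.

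ATAC-seq peaks were closer in frequency between the classes. They lay within 1 kb of 2192 lncRNA starts (33.6%, 32.5% to 34.8%), against 46.3% of all annotated genes and 72.2% of coding starts, a difference of 38.5 points (37.2 to 39.8). Both peaks were found at 862 lncRNA starts (13.2%), where the background over all genes was 34.7%. A further 1330 lncRNA starts (20.4%, 19.4% to 21.4%) had an ATAC-seq peak and no H3K4me3, a class that held 11.6% of all genes and 6.61% of coding starts. As a share of all starts, lncRNA exceeded coding in this class by 13.8 points (12.8 to 14.8). Among starts without H3K4me3 the classes lay closer: 1330 lncRNA starts had ATAC-seq only and 4272 neither peak, against 1375 and 5626 coding starts. H3K4me3 without ATAC-seq was found at 55 lncRNA starts (0.844%), against 1.31% of all genes and 0.803% of coding starts. Neither peak was found at 4272 lncRNA starts (65.5%), against 52.4% of all genes and 27.0% of coding starts. Of lncRNA starts with open chromatin 60.7% lacked H3K4me3, against 9.16% of open coding starts.

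**Figure D1:**
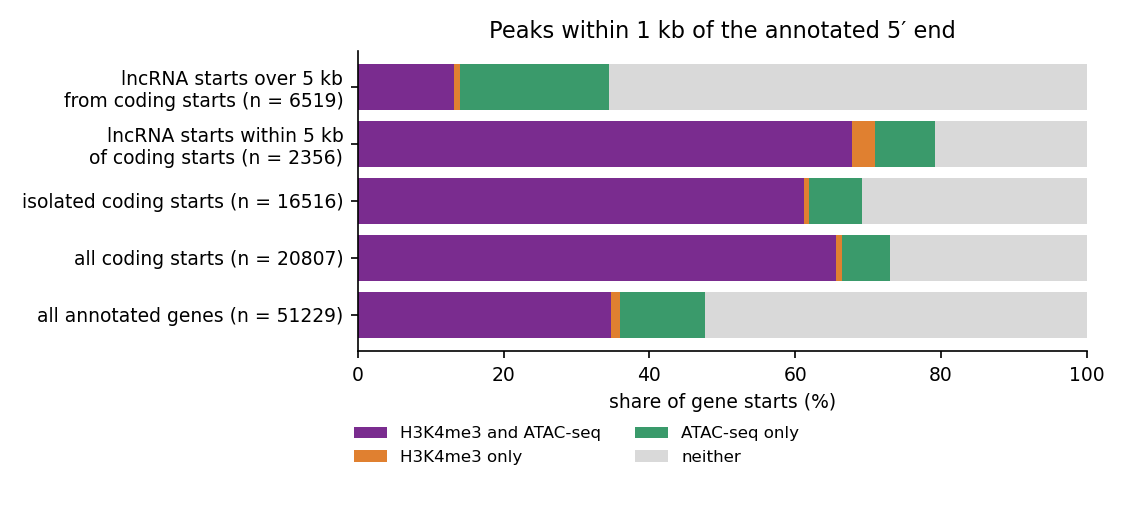
Share of gene starts (%, horizontal axis) with both peaks, H3K4me3 only, ATAC-seq only or neither within 1 kb of the annotated 5′ end, for each class of genes; n is the number of genes. LncRNA starts over 5 kb from coding starts had the smallest share with both peaks (13.2%) and the largest with ATAC-seq only (20.4%) of the classes drawn.

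The rule places lncRNA starts over 5 kb from coding starts, so their peaks lie apart from coding starts largely by choice of the members. None of the 947 H3K4me3 peaks at lncRNA starts came within 1 kb of a coding transcript start, and the nearest lay 2343 bp away. These peaks were 2.91% of the H3K4me3 list, and the 2695 ATAC-seq peaks at lncRNA starts were 1.56% of the ATAC-seq list. A single H3K4me3 peak was counted for more than 1 member in 53 cases, which involved 96 members. LncRNA starts within 5 kb of a coding start, which the rule left out, carried H3K4me3 at 71.0% and ATAC-seq peaks at 76.1%, and peaks there cannot be told apart from those of the coding starts beside them. Around the limit itself the share changed little: 22.9% of 153 lncRNA starts in the last 1 kb before the 5 kb limit, just outside the set, had H3K4me3, and 24.8% of 137 in the first 1 kb beyond it, just inside the set.

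In both assays the peaks were centred on the annotated 5′ ends. In 1 kb bins, 12.8% of lncRNA starts had an H3K4me3 peak in the first 1 kb downstream, against a median of 4.46% in the bins 10 to 20 kb away, a ratio of 2.86. For isolated coding starts the values were 61.5% and 6.15%, a ratio of 10.0. For ATAC-seq the lncRNA values were 26.8% and 11.5% (ratio 2.33) and the isolated coding values 66.2% and 14.0% (ratio 4.72). The surroundings at 10 to 20 kb thus differed less between the classes than the starts did.

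**Figure D2:**
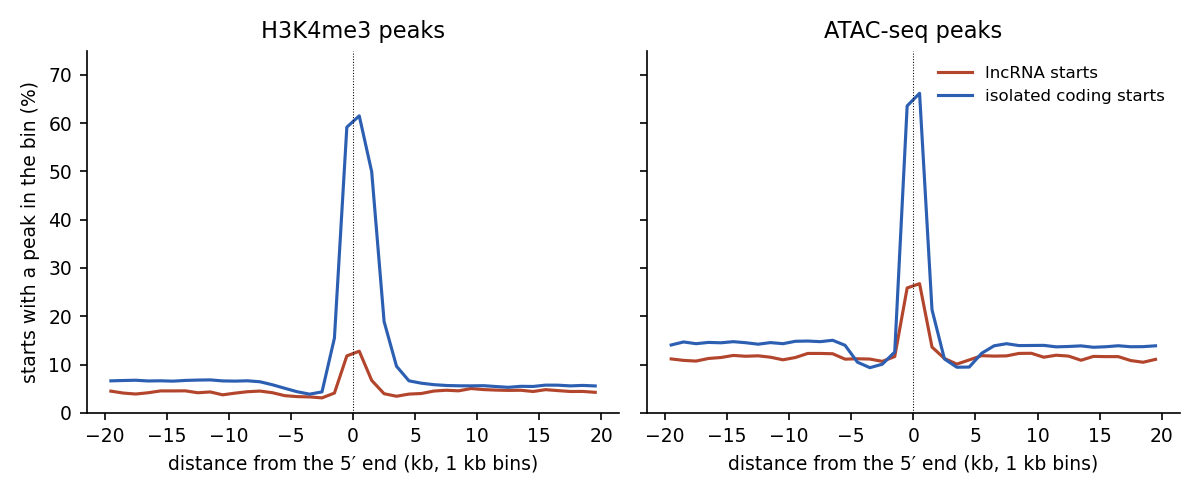
Share of starts with a peak overlapping each 1 kb bin (%, vertical axis) by distance from the 5′ end, negative upstream, for H3K4me3 (left) and ATAC-seq (right). LncRNA starts reached 12.8% for H3K4me3 and 26.8% for ATAC-seq in the bin just downstream of the start, isolated coding starts 61.5% and 66.2%.

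Where lncRNA starts were marked, the peaks were weaker, narrower and less tightly placed. The strongest H3K4me3 peak within 1 kb had a median fold enrichment, as the peak caller gave it, of 8.34 (interquartile range 4.50 to 16.1) at the 917 marked lncRNA starts, against 31.0 (20.6 to 40.5) at marked coding starts. The median −log10 q was 49.0 against 462 and the median width 1156 bp against 2168 bp. Fold enrichment exceeded 20 at 179 marked lncRNA starts (19.5%) and at 76.1% of marked coding starts, and was under 5 at 275 (30.0%) and 3.43%. The lncRNA median was close to that of the whole list (8.93), with 48.5% of all H3K4me3 peaks below it. The peak covered the annotated first base at 72.8% of marked lncRNA starts and 94.0% of marked coding starts. Its summit lay downstream at 65.3% of marked lncRNA starts, with a median of 144 bp (interquartile range -173 to 371), and at 85.1% of marked coding starts, with a median of 215 bp. It was over 1 kb from the start at 107 marked lncRNA starts (11.7%) and 6.11% of marked coding starts, and there the fold enrichment was not measured at the start itself.

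**Figure D3:**
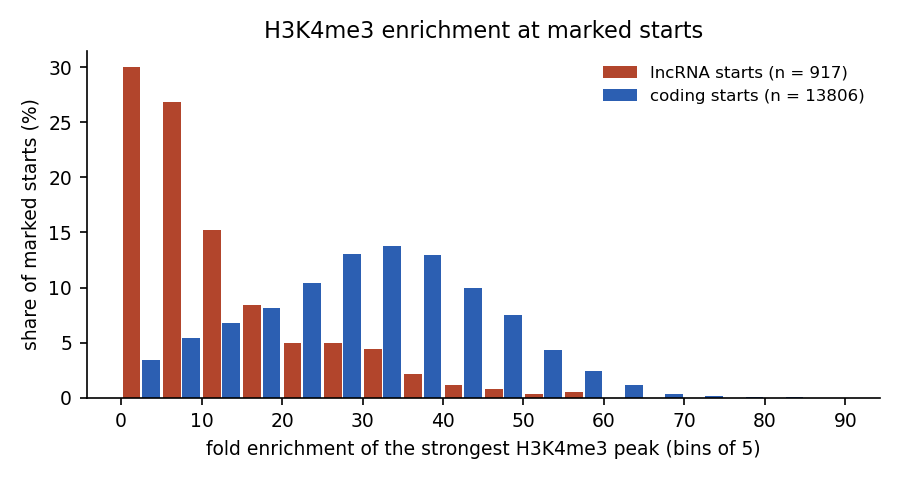
Fold enrichment of the strongest H3K4me3 peak within 1 kb (horizontal axis, bins of 5) at marked lncRNA and coding starts; bars give the share of marked starts (%). The lowest bin holds 30.0% of marked lncRNA starts and 3.43% of marked coding starts.

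The ATAC-seq peaks followed the same order. At lncRNA starts with H3K4me3 the widest ATAC-seq peak within 1 kb had a median width of 655 bp, and 94.0% of these starts had a peak. At lncRNA starts without H3K4me3 that had an ATAC-seq peak the median width was 287.5 bp. A peak covered the first base at 39.2% of them, against 73.1% where H3K4me3 was present. The corresponding widths at coding starts were 919 bp with H3K4me3 and 291 bp without. An ATAC-seq peak without H3K4me3 was thus of like width in the lncRNA and coding classes. The median over the whole ATAC-seq list was 261 bp.

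CpG content separated marked from unmarked lncRNA starts, and it also separated lncRNA from coding starts. The 300 bp promoter of a lncRNA gene held a median of 3 CpGs, against 12 for coding genes. Marked lncRNA starts had a median of 8 CpGs and a GC content of 52.3%, those with ATAC-seq only 4 CpGs and 49.3%, and those with neither peak 3 CpGs and 46.3%. With 0 to 2 CpGs, 3.64% of 2389 lncRNA starts had H3K4me3, against 7.79% of coding starts in the same class. The share was 8.97% at 3 to 5 CpGs, 21.7% at 6 to 10, 44.4% at 11 to 15, 76.8% at 16 to 20, and 90.4% (84.3% to 94.3%) of the 136 lncRNA starts with 21 or more. Coding starts in the last 5 classes were marked at 29.4%, 66.9%, 94.6%, 99.1% and 99.3%.

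Within every CpG class lncRNA starts carried H3K4me3 less often than coding starts. The difference was largest at 11 to 15 CpGs, with 50.2 points (44.5 to 55.8), and smaller at both ends, with 4.15 points (3.01 to 5.25) at 0 to 2 CpGs and 8.82 points (4.93 to 14.9) at 21 or more. ATAC-seq was different at the CpG-poor end: with 0 to 2 CpGs, 20.5% of lncRNA starts and 16.4% of coding starts had a peak, so that lncRNA starts were ahead by 4.08 points (2.12 to 6.08). As a share of all starts, an ATAC-seq peak without H3K4me3 was more frequent at lncRNA than at coding starts in each CpG class. The difference ran from 5.27 points (3.09 to 7.47) at 3 to 5 CpGs up to 17.4 points (13.2 to 22.3) at 11 to 15. Among starts without H3K4me3 this order did not hold in each class. At 11 to 15 CpGs, 61 lncRNA starts had ATAC-seq only and 107 neither peak, against 63 and 59 coding starts. At 0 to 2 CpGs the counts were 422 and 1880 against 396 and 3379. Promoters with 0 to 2 CpGs made up 36.6% of lncRNA and 19.7% of coding genes, whereas those with 21 or more CpGs made up 2.09% and 30.1%. Weighted to the CpG classes of coding genes, the lncRNA shares were 45.8% for H3K4me3 and 60.9% for ATAC-seq, below the coding shares of 66.4% and 72.2%. Fold enrichment at marked starts also differed within the classes, with a median of 5.63 at lncRNA and 15.5 at coding starts with 0 to 2 CpGs, 9.80 and 26.7 at 11 to 15, and 23.9 and 35.8 at 21 or more. The classes by CpG number were drawn after the values had been seen. By the CpG observed to expected ratio, H3K4me3 was at 5.03% of lncRNA starts with a ratio up to 0.2 and at 59.3% of those over 0.6, against 12.0% and 98.5% of coding starts.

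**Figure D4:**
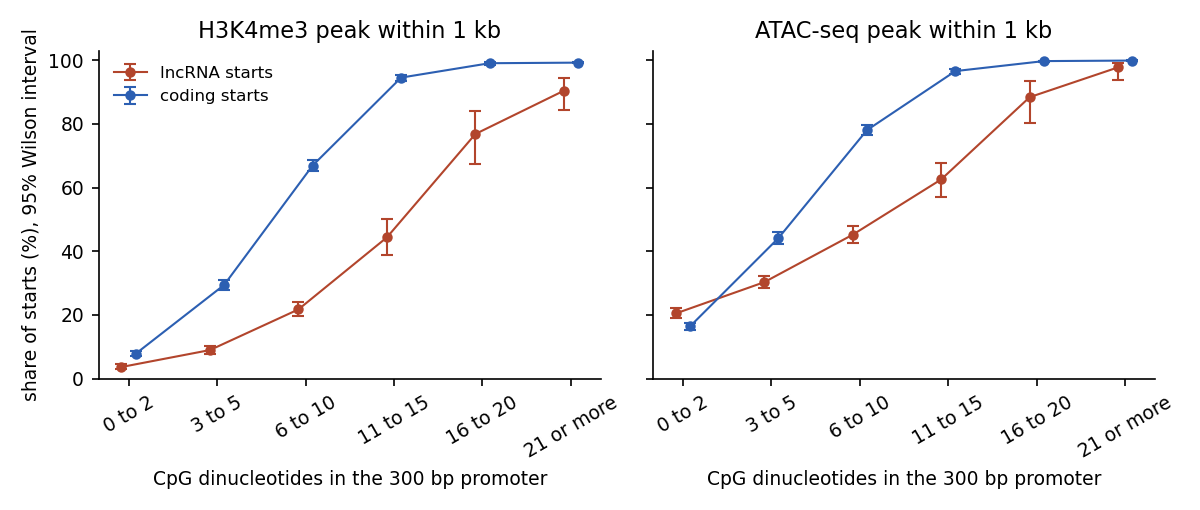
Share of starts (%) with an H3K4me3 peak (left) or an ATAC-seq peak (right) within 1 kb, by the number of CpGs in the 300 bp promoter; bars are 95% Wilson intervals. H3K4me3 ran from 3.64% to 90.4% of lncRNA starts and from 7.79% to 99.3% of coding starts.

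Short promoter motifs differed between marked and unmarked lncRNA starts. Each was searched on both strands of the 300 bp promoter, as the exact letters only. GGGCGG, the core of the GC box bound by Sp1, was in 31.1% of marked lncRNA promoters, 8.95% of those with ATAC-seq only and 4.66% of those with neither peak, against 23.6% of all promoters and 62.0% of marked coding promoters. Since GGGCGG holds a CpG, the motif and CpG content cannot be told apart here. TATAAA, the TATA box, went the other way, with 8.51% of marked lncRNA promoters, 18.2% of those with neither peak and 17.2% of all promoters. CACGTG, the E-box, was in 9.71% of marked lncRNA promoters and 4.78% of those with neither peak, with 5.51% over all promoters. CACGTG also holds a CpG and TATAAA holds only A and T. These differences cannot be told apart from CpG and GC content either. CCAAT, the letters bound by NF-Y, was in 37.8% and 37.5%, with 38.2% over all promoters. Among the sequences above, 1810026B05Rik and Hotair hold CCAAT and GGGCGG, Platr7 CCAAT and Platr10 CACGTG.

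H3K4me3 was less frequent at the lncRNA promoters whose sequence recurs most in the genome, whereas ATAC-seq peaks were about as frequent there as elsewhere among lncRNA starts. Every 32-base word of a promoter was counted on both strands of the main chromosomes, a check added after the values had been seen. In 5237 lncRNA promoters (80.3%) at least 90% of the words occurred once, and 14.8% of these starts had H3K4me3 and 33.3% an ATAC-seq peak. The shares were not lower in the 726 with 50% to 90% of the words once, at 15.7% and 37.3%. In 556 lncRNA promoters (8.53%) under 50% of the words occurred once, and there 5.40% (3.81% to 7.60%) had H3K4me3, whereas 178 of the 556 had an ATAC-seq peak. Coding starts showed lower shares in both assays, with 10.3% and 30.0% where under 50% of the words occurred once and 72.9% and 77.5% where at least 90% did. The difference in H3K4me3 between lncRNA and coding starts was thus present in the unique promoters as well. How reads with several equally good places were handled is not given in the sources used here for either list, and its part in these shares was not tested. With soft-masked repeat sequence both assays were less frequent than without it. H3K4me3 was at 16.8% of lncRNA promoters with no masked base and 14.4% of the 4040 masked up to 50% of their length. It was at 9.22% of those masked over more than 50%, and 2.60% of the 192 masked throughout. ATAC-seq peaks were at 36.7%, 33.0%, 33.1% and 22.9% in the same order, and so did not fall at each step.

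H3K4me3 also varied with the kind of lncRNA gene. By type it was found at 12.3% (10.8% to 14.0%) of antisense, 13.3% (12.4% to 14.4%) of lincRNA and 30.2% (25.7% to 35.0%) of processed_transcript starts. The intervals of the first 2 overlap, and those of processed_transcript starts lie above both. The 263 genes with a name of their own were marked at 35.7%, against 17.1% of 1277 named after a Rik clone, 15.3% of 511 named after a sequence accession and 11.8% of 4468 with a Gm number. Processed_transcript and own-name members include some under names of protein-coding genes, such as Zswim6 and Ptpmt1. Their part in these shares was not tested. By number of exons the share was 16.9% for 1 exon, 13.7% for 2 and 14.1% for 3 or more, with overlapping intervals. Starts between coding genes were marked at 14.7% (13.8% to 15.7%) and those inside a coding gene on its opposite strand at 11.6% (10.1% to 13.4%), while the 117 inside a coding gene on its own strand had 15.4% (9.96% to 23.0%), an interval that includes both.

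Hosts of small RNAs were marked more often than other members, at a share near or above the 36.0% of all annotated genes. Of 83 members that contain a miRNA gene on their strand, 39 (47.0%, 36.6% to 57.6%) had H3K4me3, against 13.6% of the other members. Of 51 members that contain a small nucleolar RNA (snoRNA) gene, 18 (35.3%, 23.6% to 49.0%) were marked, against 13.9% of the others, with a median fold enrichment of 37.3. Splicing frees snoRNAs from the introns of such transcripts. Snhg14, which holds 208 snoRNA genes and is the largest such host among the members, had neither peak, and Mirg, which holds 14 miRNA genes, had neither.

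Distance from coding genes went with the marked share. H3K4me3 was at 24.6% of lncRNA starts 5 to 10 kb from the nearest coding start, 19.2% at 10 to 20 kb, 17.2% at 20 to 50 kb, 15.4% at 50 to 100 kb, and 6.16% (5.23% to 7.23%) of the 2242 starts over 100 kb away. ATAC-seq peaks ranged from 42.8% in the nearest class to 23.6% in the farthest. Whether the coding gene with the nearest start had H3K4me3 within 1 kb of its annotated 5′ end made a small difference over all members. The lncRNA share was 14.5% where it did and 12.6% where it did not, and the intervals overlap. That 5′ end need not be the nearest start, which was not itself checked. A nearest gene not found among the coding genes counted as unmarked. By distance the shares were 25.9% and 20.8% at 5 to 10 kb, 21.1% and 13.9% at 10 to 20 kb, 18.1% and 14.2% at 20 to 50 kb, 15.6% and 15.0% at 50 to 100 kb, and 6.16% and 6.14% beyond. The separate intervals of both shares overlap in every class. No interval of the difference was computed, so the overlap does not exclude a difference. The median CpG number was 4 in each class up to 100 kb and 3 beyond.

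Named lncRNAs were marked more often than the other members. A list of 62 members in 4 groups was set by symbol from well-known genes, whose expression in some tissue is established, and its shares are given as a description. The annotation held 37 listed pluripotency, 9 imprinted, 26 widely expressed and 20 lineage genes, of which 28, 6, 17 and 11 were members. The other listed genes did not meet the rule and are not in these shares. H3K4me3 was at 48 and ATAC-seq at 52 of the 62, with 7 in the ATAC-only class and 7 with neither peak, while 13.5% of the other 6457 members and 36.0% of all genes had H3K4me3.

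The widely expressed group was marked throughout. All 17 members had H3K4me3 and ATAC-seq peaks, with fold enrichments from 13.5 to 59.6 and a median of 40.1, above the coding median of 31.0. The 7 Snhg genes of this group, named as small nucleolar RNA host genes, ranged from 29.3 (Snhg15) to 55.5 (Snhg5). Snhg14, which was placed in the imprinted group, had neither peak. 1810026B05Rik had a fold enrichment of 59.6 in a peak of 3650 bp. Epb41l4aos followed with 54.9, and Dancr, which takes part in keeping progenitor cells undifferentiated, had 41.3. Malat1, an abundant RNA of nuclear speckles, had 40.1 in a peak of 8419 bp, and its neighbour Neat1, the scaffold of paraspeckles, had 14.7 in a peak of 5155 bp. Mir17hg, the host of the miR-17 cluster, had 40.5 at a summit at -1740 bp, upstream of its annotated 5′ end, and Pvt1, beside Myc, had 22.6. The lowest of the group were Miat (14.8) and 2900097C17Rik (13.5), which is known as Norad and acts in genome stability.

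The pluripotency group was marked less strongly. H3K4me3 was at 19 of 28 members and ATAC-seq at 21, with fold enrichments from 2.51 to 28.5 and a median of 10.4. Within it the 23 members of the Platr series had 16 marked starts, with a median promoter of 4 CpGs and 41.7% of the bases masked as repeats. Platr10 had the strongest peak, with a fold enrichment of 28.5 over 5116 bp, although its promoter has 1 CpG. Platr4 reached 19.4 and Platr22 16.1. Platr29 had 16.6, but at a peak that lay upstream of its 5′ end, with the summit at -1232 bp. Platr7, with no CpG, had 6.57, and Platr11, the weakest marked member, had 2.51. Lncenc1, which is expressed in naive ES cells, had 7.11, Halr1, next to the HoxA cluster, 4.93, and Lncpint, a target of p53, 12.3.

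The unmarked Platr starts were mostly repeated sequence. Of the 7 without H3K4me3, 5 (Platr2, Platr13, Platr15, Platr28 and Platr31) had a promoter in which under 50% of the 32-base words occurred once, against 0 of the 16 marked members, whose lowest value was 59.1%. In Platr31 no word occurred once. Platr6 and Platr26 were unique in sequence and had an ATAC-seq peak only. Platr3, Platr29 and Platr30 had H3K4me3 without an ATAC-seq peak, so that 3 of the 55 members of that class belonged to this series. In all 3 the strongest H3K4me3 peak lay upstream of the 5′ end without covering it, with the summit at -2183 bp for Platr3 and -1777 bp for Platr30. Platr3 had 2 H3K4me3 peaks within 1 kb, and the weaker was not placed. Sox2ot, which overlaps Sox2, and the neural lncRNA Rmst had neither peak at their annotated 5′ ends.

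Imprinted lncRNAs, which are transcribed from a single parental allele, were marked at 4 of 6. Kcnq1ot1 had a fold enrichment of 33.8, Meg3 30.2 and Airn 23.1, all with ATAC-seq peaks. H19 had 5.93 in a peak of 2008 bp although its promoter holds 15 CpGs. Snhg14 and Mirg had neither peak. The lists do not separate the castaneus and S129/SvJae alleles.

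Lineage lncRNAs, whose main known expression is in differentiated tissues, were nevertheless marked at 8 of 11 starts. Mir155hg, the host of a miRNA of immune cells, had 30.6, Mir124a-1hg, the host of a neuronal miRNA, 20.5 in a peak of 5614 bp, and Pantr2, beside Pou3f3, 13.4. The neural genes Mir9-3hg (9.69), Paupar (8.76, beside Pax6), Dlx1as (8.27, with the summit at -3632 bp) and Dlx6os1 (3.58) had weaker peaks, as had the cardiac gene Bvht (6.89). Carmn and Hotair had an ATAC-seq peak only, and Mir99ahg had neither. The median of the marked lineage members was 9.22 with a median promoter of 10 CpGs over the group, close to the pluripotency group in fold enrichment and below the widely expressed group. An H3K4me3 peak alone does not tell an active start from a poised one, and no RNA was measured here.

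**Figure D5:**
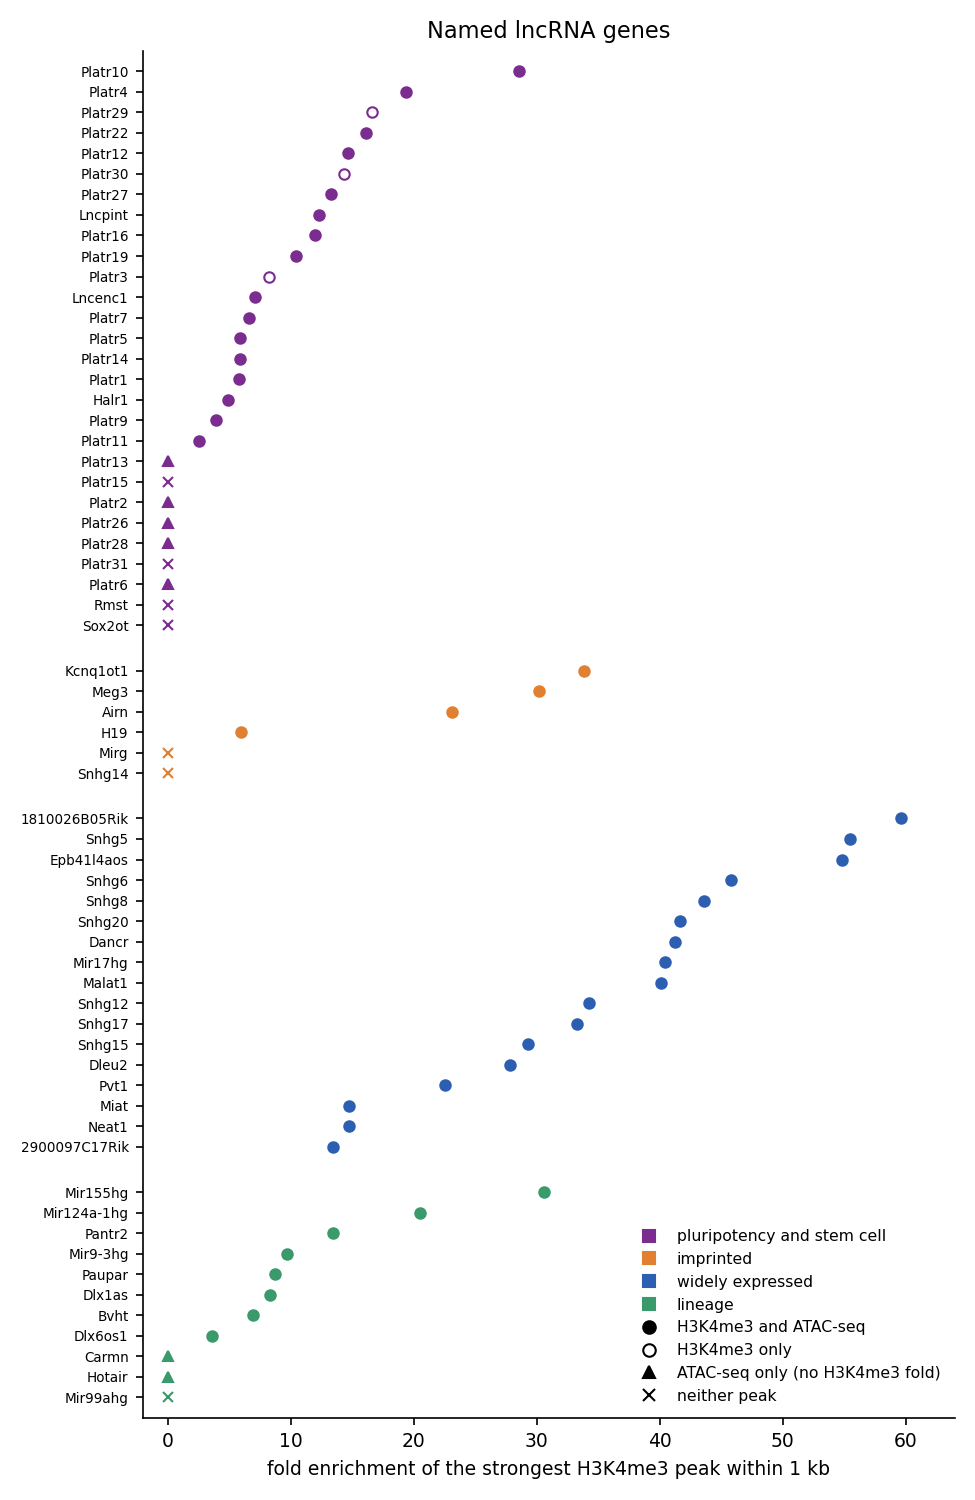
Fold enrichment of the strongest H3K4me3 peak within 1 kb (horizontal axis) for the 62 named members, by group and sorted within it; filled circles also have an ATAC-seq peak, open circles do not, and members without H3K4me3 are drawn at 0 as triangles (ATAC-seq peak) or crosses (neither peak). All 17 widely expressed members lie at 13.5 or above, and 7 of the 62 are crosses.

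The strongest members lay above the coding median of 31.0. The 10 highest fold enrichments ran from 49.3 to 59.6. After 1810026B05Rik they were 2700038G22Rik (58.0), E130102H24Rik and 0610043K17Rik (57.6 in 1 shared peak), Snhg5, Epb41l4aos, 6720427I07Rik (53.6), 1700020I14Rik (51.8), Zswim6 (49.8) and Spata5l1 (49.3). All but 0610043K17Rik had an ATAC-seq peak within 1 kb and 15 to 40 CpGs. The 5′ end of 0610043K17Rik, with 2 CpGs and no ATAC-seq peak, lay outside the peak, whose summit was 2584 bp downstream of it. Zswim6 and Spata5l1 carry the names of protein-coding genes but are typed noncoding in this annotation release. Other members do so too, among them Ptpmt1, Tctn2 and Trerf1 with H3K4me3 and C4a and Anxa13 without it. Such members were not counted.

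The widest peaks were at C230035I16Rik (9082 bp), Malat1, Dleu2 (7753 bp), Gm16170 (6537 bp) and Gm14342 (6174 bp). Dleu2 hosts miR-15a and miR-16-1. At C230035I16Rik the summit lay at -6851 bp, upstream of the 5′ end, and at Gm14342 it lay at -3612 bp. Peaks wider than 5 kb were found at 16 marked lncRNA starts (1.74%) and 2.95% of marked coding starts. At the other end of the list, Gm26644 (2.14), 2810433D01Rik (2.29), Gm26685 (2.31), AI847159 (2.37) and 0610033M10Rik (2.43) had the lowest fold enrichments, with −log10 q between 2.99 and 3.95 and 1 to 8 CpGs. All 5 had an ATAC-seq peak.

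Of the 5 members with most open chromatin and no H3K4me3, 4 had promoters in which under 50% of the words occurred once. Gm42418 and AY036118, with ATAC-seq peaks over 1835 and 1619 bases of the 2 kb around their 5′ ends, overlap on opposite strands of chr17. They lie at a ribosomal RNA unit of the assembly and have the same widest ATAC-seq peak. Gm49700 (1569 bases), Gm48693 (1561) and 2410018L13Rik (1436) lie on chr12, and between 9.67% and 45.7% of their promoter words occurred once. Gm49700 and Gm48693 share 1 ATAC-seq peak, so the 5 members are not 5 separate places. The value was 23.8% for Gm42418, whereas it was 98.9% for AY036118. Only the main chromosomes were searched.

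At both ends of CpG content few lncRNA starts went against it, whereas at 11 to 15 CpGs 134 of 302 had H3K4me3. Of the 136 with 21 or more CpGs, 13 lacked H3K4me3, and 10 of these had an ATAC-seq peak. In 7 of the 13 under 50% of the promoter words occurred once, against 10 of the marked ones. The 13 included 6 between 18 and 24 Mb of chr12, a stretch picked after the values had been seen, with 21 members of which 18 had such repeated promoters, 14 had an ATAC-seq peak and 5 had H3K4me3. In the opposite corner, 87 of 2389 lncRNA starts with 0 to 2 CpGs had H3K4me3, and 9 of them had a fold enrichment over 20. Besides Platr10 and 0610043K17Rik these 9 included Ptpmt1 (35.2), 2410003L11Rik (31.1) and 2400006E01Rik (24.2), which were named after their values had been seen. Ptpmt1 is 1 of the members under the name of a protein-coding gene. In 2400006E01Rik 77.0% of the promoter was masked as repeats and held no CpG, and the peak covered the start.

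Back-to-back members made up a small part of the set. In 71 pairs of lncRNA genes on opposite strands with divergent starts within 1 kb of each other, at least 1 of the pair had H3K4me3 in 14 cases (19.7%, 12.1% to 30.4%) and an ATAC-seq peak in 27 (38.0%, 27.6% to 49.7%). A pair counts 2 starts, so these shares are not comparable with the share per start.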

How the data were processed

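H3K4me3 ChIP-seq and ATAC-seq lists, each standing for 2 replicates of F123 cells, were used, and the other 6 of the 10 samples (PLAC-seq and ChIP-seq input) were not used here. The H3K4me3 list came from the ENCODE pipeline for histone marks, which the authors ran with its default settings. It was deposited with a fold enrichment, a −log10 q and an integer display score for each peak, and the score was not used. For ATAC-seq, the authors mapped reads to mm10 with bowtie 1.1.2, moved read ends by 4 bp for the Tn5 cut, called peaks with MACS2 2.1.1.20160309 and kept pooled peaks found in both replicates with bedtools 2.27.1. That list gives positions only. Neither list gives read counts, so depth and its precision are unknown.

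The 5′ ends of GENCODE M21 genes were matched to peaks overlapping the 1 kb on either side. Promoter sequence was read from GRCm38 (RefSeq FASTA, lower case taken as masked). Python 3.11.15, pandas 2.3.3 and numpy 2.4.6 were used, and bedtools 2.31.1 gave the same 917 and 2192 members. Overlap and word counts were tested on simulated data. No test was run, because a pooled list has no replicates. The members and gene lists were chosen with earlier results of these data known. Named were the members of a fixed list of known lncRNAs, the 10 highest and 5 lowest fold enrichments, the 5 widest peaks, and the 5 with most ATAC-seq bases without H3K4me3. Alternatives changed the window, the distance from coding starts, the transcripts and annotation used, and the peak thresholds.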

Additional observations from a re-analysis of the deposited data

How the results depend on the processing

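None of the 19 alternative values of a difference changed direction, and 17 of 36 values (shares and differences) moved beyond the counting interval. The H3K4me3 share of lncRNA starts was 13.1% with a window of 500 bp, 15.9% with 2 kb and 13.0% over 10 kb from coding starts. The difference in H3K4me3 from coding starts was 53.4 points over 10 kb from coding starts, 50.6 with starts within 1 kb counted once, 55.0 with any transcript start and 47.9 against isolated coding genes. The ATAC-seq share was 27.6% with 500 bp, 42.6% with 2 kb, 35.6% with any transcript start and 23.3% with the widest 50% of peaks. Its difference from coding starts was 42.1, 33.3, 40.7 and 44.9 points under these, 37.1 with starts counted once and 34.8 against isolated coding genes. Counting starts of all transcripts of coding genes was added after the data had been seen and stayed within the interval. Leaving out peaks at coding starts, also added then, removed 0 peaks and so tested nothing. No paired analysis was possible because the replicates of an assay share 1 list, and for the same reason no replicate could be left out. Without read counts, a start without a peak is a start below the callers' thresholds, not one without the mark.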
